A study of Sus scrofa with 10 samples.

Results

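The genes described here are the nuclear splicing factors of the hnRNP, SR, SF3A, SF3B and U2AF families. They were taken from the deposited gene tables of minipig (Sus scrofa) cardiomyocytes as every row whose gene name begins with HNRNP, SRSF, SF3A, SF3B or U2AF. This gave 36 of 35670 gene identifiers: 14 hnRNP genes, 11 SR protein genes, 8 SF3A and SF3B genes and 3 U2AF genes. All 36 passed the filter on low counts and were tested. The rule used only names, but the family was chosen with earlier results of these data known.

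Nuclear RNA had been sequenced from cardiomyocytes sorted from wild-type hearts in 10 libraries. DOCA plus JK07 had 3 libraries (8, 9 and 10), DOCA alone had 2 (6 and 7), and the controls, which received phosphate-buffered saline (PBS), had 5 (1 to 5). DOCA is deoxycorticosterone acetate, a mineralocorticoid, and JK07, by the title of the series, activates ERBB4, a receptor for neuregulin. The sources used here give neither the heart chamber, dose, duration, age or sex nor whether each library came from its own animal. P-values therefore measure a spread between libraries that may be technical.

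Splicing removes introns from nuclear transcripts, so a nuclear library samples the RNA on which these proteins act. U2AF binds the end of the intron, U2AF2 at the pyrimidine-rich stretch and U2AF1 at the AG dinucleotide that closes it, and recruits the U2 small nuclear ribonucleoprotein, whose SF3A and SF3B subunits clamp onto the branch point. SR proteins bind exons through RNA-recognition motifs and favour their inclusion through arginine-serine domains, while hnRNP proteins coat the transcript and often favour skipping. Many SR and hnRNP genes also hold exons whose inclusion sends their own transcripts to decay. In the mouse heart, loss of Srsf1, Srsf2 or Hnrnpu disturbs splicing and contractile function.

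The 2 DOCA libraries stood apart from the other 8. Most estimated counts of every library, 77.6 to 90.8%, fell on 2 unplaced scaffolds. These were picked because each held over 1% of all counts, and were taken here as ribosomal RNA. Outside them and the mitochondrial genome, called outside the scaffolds below, the DOCA libraries held 6.87 and 3.30 M counts. That compares with 9.03 to 12.9 M with DOCA plus JK07 and 8.67 to 13.9 M in controls. Of 13480 genes counted as expressed, 24.2 and 28.1% were at 0 in the DOCA libraries, against 1.499 to 5.78% with DOCA plus JK07 and 1.02 to 5.17% in controls. Of all counts not on the scaffolds, mitochondrially encoded transcripts made up 2.58 and 0.488% in DOCA, 4.40 to 8.26% with DOCA plus JK07 and 3.69 to 5.57% in controls. The part of these differences in the results that follow was not tested. Of 12 cardiomyocyte markers, 10 were found in the files, and none of the 10 was at 0 in any whole group. Their summed level, in CPM (counts scaled to library depth), was 3839 and 5823 CPM in DOCA, 5213 to 8522 CPM with DOCA plus JK07 and 4403 to 5372 CPM in controls. The 8 fibroblast markers summed to 561 and 2203 CPM in DOCA, 586 to 1487 CPM with DOCA plus JK07 and 587 to 2325 CPM in controls, and overlapped between groups. The 8 markers of smooth muscle and pericytes were lower in DOCA, with 74.9 and 78.8 CPM, against 106.2 to 139.6 CPM with DOCA plus JK07 and 90.1 to 142 CPM in controls. Endothelial markers summed to 100.2 and 168 CPM in DOCA and macrophage markers to 63.4 and 69.6 CPM, within 108.8 to 247 and 29.5 to 139 CPM in the other 8 libraries except for the first value. All lymphocyte, Schwann cell and neuron markers in the files were at 0 in both DOCA libraries. The part of these cells in the results was not tested. In RNA of sorted nuclei, fewer nuclei of a type and less RNA per nucleus cannot be told apart.

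The family was well expressed in control cardiomyocytes. Levels between genes are given in TPM, the length-corrected transcript abundance, recomputed over genes outside the ribosomal scaffolds and the mitochondrial genome. The median of the 36 genes was 76.5 TPM, against 14.0 TPM over the genes tested, and 33 of the 36 lay above that second value. HNRNPH1, which binds runs of G, was highest with 488 ± 64.5 TPM (SD, n = 5), rank 111 of all genes. SRSF2 followed with 342 ± 57.7 TPM (SD, n = 5), rank 160, and HNRNPU, a scaffold protein of nuclear RNA and chromatin, with 304.5 ± 17.9 TPM (SD, n = 5). HNRNPA1, a classic repressor of exon inclusion, averaged 288 TPM and HNRNPL, which binds CA repeats, 265 TPM.

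By class, the median was 116 TPM for hnRNP genes, 161 TPM for SR genes, 32.5 TPM for SF3A and SF3B genes and 52.9 TPM for U2AF genes. SF3B3 led the 8 SF3 genes with 58.5 ± 8.0 TPM and U2AF2 led its class with 77.9 ± 7.48 TPM (SD, n = 5 each). At the low end stood HNRNPH2, the X-linked relative of HNRNPH1, with 6.60 ± 1.88 TPM, and SF3B6, the subunit next to the branch-point adenosine, with 8.04 ± 1.49 TPM (SD, n = 5 each). The order is loose: of 35 neighbouring pairs in it, 34 overlapped in their control libraries, and the exception was SRSF1 below HNRNPL.

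**Figure D1:**
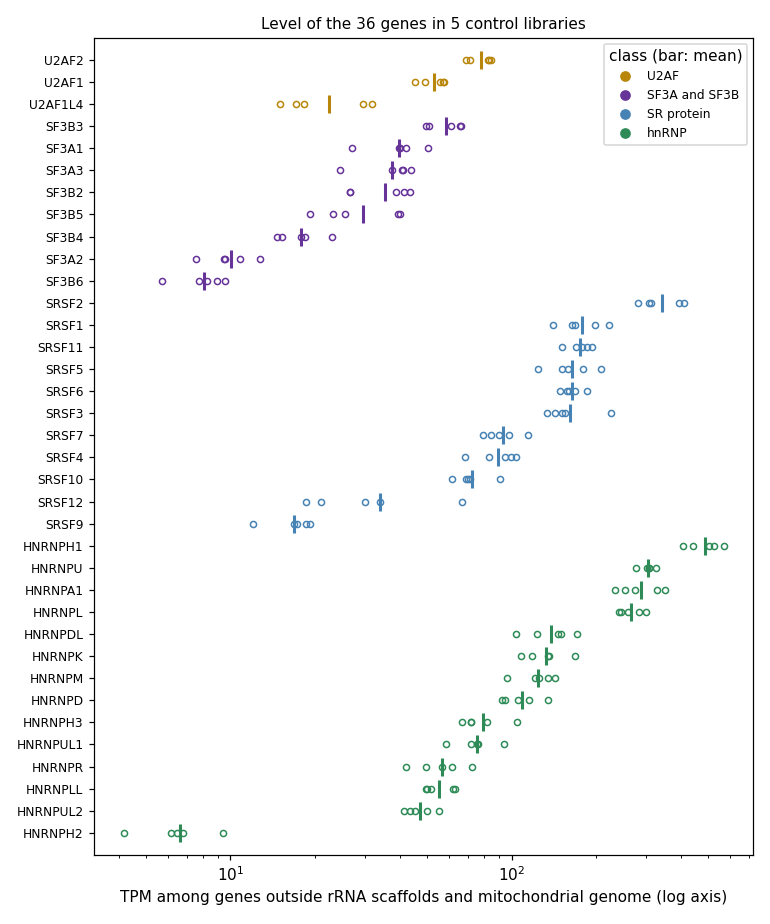
Levels of the 36 splicing factor genes in the 5 control libraries, in TPM on a log axis, recomputed outside the ribosomal scaffolds and the mitochondrial genome. Circles are libraries, bars their mean and colours the classes; HNRNPH1 is rightmost at 488 TPM and HNRNPH2 leftmost at 6.60 TPM.

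Control libraries were close to each other for these genes. The coefficient of variation over the 5 controls had a median of 15.1%, against 28.3% over all genes tested, with SRSF11 lowest at 6.36% and SRSF12 highest at 63.9%. Levels per library below are in CPM of the library total after TMM scaling, a unit that compares libraries but not genes of different length. As a sum over the 36 genes, DOCA libraries held 674 ± 187 CPM (SD, n = 2), DOCA plus JK07 754 ± 65.5 CPM (SD, n = 3) and controls 766 ± 40.3 CPM (SD, n = 5).

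For DOCA against control, 10 of the 36 genes passed an adjusted p of 0.05 in the quasi-likelihood test of edgeR, against 25.5% of all 17251 genes tested, which is near the share of the members. The split by direction was 5 higher and 5 lower, while over all genes 5.73% were called higher and 19.7% lower. The 5 called higher were U2AF2, U2AF1, SF3B2, SF3A2 and SRSF2, and the 5 called lower were SRSF5, SRSF11, HNRNPK, HNRNPH2 and SF3B6, of which the last 2 were listed at 0 in both DOCA libraries. The median log2 fold change was -0.20 over the 36 genes and -0.63 over all genes. The median of the 36 turned sign with the scaling and the libraries: it was 0.02 under upper quartile scaling (-0.39 over all genes) and 0.09 without library 7 (-0.82 over all genes).

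The size of that gap in the medians depends on how genes at 0 are treated. Of all genes tested, 27.8% were at 0 in both DOCA libraries, against 2 of the 36. The deposited tables list few coverage values under 1, so a gene listed at 0 lay under that minimum and no fold change is given for it. Such genes were placed at a coverage of 1, or at no change where the control level itself would lie under 1. The median was then -0.18 over the 36 genes and 0.00 over all genes. That 0.00 is set by the genes placed at no change, so it measures nothing. Keeping only genes above 0 in at least 1 DOCA library is a choice made on the DOCA values themselves. It leaves out 4791 genes, of which 2030 were called lower and 0 higher. The values of the subset therefore cannot show where the gap came from. Among the 12460 genes kept, 7.93% were called higher and 11.02% lower, and of the 34 members among them 5 were called higher and 3 lower. Their median log2 fold change was -0.12 over all such genes and -0.13 over the members.

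These calls rest on 2 libraries that differ. With quality weights per library in limma, which allow the spread to differ between libraries, 0 of the 36 genes and 161 of all genes passed, while 16 of the 36 had an unadjusted p under 0.05 in edgeR, against 36.3% of all genes, and 14 passed in DESeq2, against 36.4% of all genes. Without library 6 the count was 18 (3 higher, 15 lower), against 24.7% of all genes, and 8 were among the 10. Without library 7 it was 8 (4 higher, 4 lower), against 28.5% of all genes, and 4 were among the 10. In limma on log2(TPM + 1) of the deposited TPM, 16 passed, all lower, against 1.50% of all genes higher and 28.6% lower. Upper quartile scaling gave 6 higher and 4 lower (1523 higher and 2868 lower of all genes), and scaling by the library total outside the scaffolds and the mitochondrial genome gave 4 higher and 7 lower (870 higher and 3099 lower of all genes), of which 8 were among the 10.

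Both subunits of U2AF were called higher in edgeR. U2AF2 (chromosome 6, 59774078 to 59789395, build Sscrofa11.1) had 30.8 and 18.0 CPM in DOCA libraries 6 and 7, against 10.1, 10.8, 11.8, 11.1 and 11.8 CPM in controls. Both DOCA libraries lay above every control. The log2 fold change was 1.13 with an approximate SE of 0.22 and an adjusted p of 0.00543 in edgeR.

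U2AF1 (chromosome 13, 206244773 to 206257702), its partner at the AG, had 14.7 and 5.82 CPM in DOCA, against 4.64, 4.33, 4.42, 3.43 and 4.51 CPM in controls. Again the groups did not overlap, but library 6 was far higher than library 7. The log2 fold change was 1.27 (SE 0.30, adjusted p = 0.0143 in edgeR). In limma on log2(TPM + 1) neither subunit passed, with 0.49 for U2AF2 (adjusted p = 0.219) and 0.50 for U2AF1 (adjusted p = 0.195). Without library 6 neither gene passed: U2AF2 had a log2 fold change of 0.69 (adjusted p = 0.0572 in edgeR) and U2AF1 of 0.45 (adjusted p = 0.19 in edgeR). U2AF1L4, a relative of U2AF1, had 1.69 and 1.74 CPM in DOCA, within the 1.03 to 2.06 CPM of controls.

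Summed over its 3 genes, U2AF had 47.2 and 25.6 CPM in DOCA, against 15.8 to 18.2 CPM in controls. As a share of the counts outside the scaffolds and the mitochondrial genome, a scale free of TMM, the class held 0.0250 ± 0.00258% in DOCA (SD, n = 2) and 0.0121 ± 0.000959% in controls (SD, n = 5).

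Among the 8 subunit genes of SF3A and SF3B found by name, 2 were called higher and 1 lower, against the 5.73 and 19.7% of all genes, with a median log2 fold change of 0.11. These are not all subunits. No gene carried the name SF3B1, and PHF5A, also of SF3B, was counted with the small nuclear ribonucleoproteins. SF3B2 (chromosome 2, 6279049 to 6294639), a large subunit that touches the RNA near the branch point, had 22.8 and 58.0 CPM in DOCA, against 9.15, 10.0, 14.7, 12.5 and 13.9 CPM in controls. Here library 7 was the higher of the DOCA pair, the reverse of U2AF1. In limma on log2(TPM + 1) SF3B2 did not pass (0.93, adjusted p = 0.0992). The log2 fold change was 1.74 (SE 0.36, adjusted p = 0.00632 in edgeR), and without library 7 it was 0.91 (adjusted p = 0.0876 in edgeR).

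SF3A2 (chromosome 2, 76410602 to 76415776), a core subunit of SF3A, had 2.46 and 3.11 CPM in DOCA, against 1.68, 1.28, 1.48, 1.85 and 1.45 CPM in controls. Its log2 fold change was 0.85 (SE 0.26, adjusted p = 0.0445 in edgeR), close to the threshold, and the call was lost without library 7 (0.66, adjusted p = 0.171 in edgeR), without control 1, 2, 3 or 5, and when libraries were scaled by the total outside the scaffolds (0.92, adjusted p = 0.0877 in edgeR). SF3A3, its partner, had 6.35 and 5.69 CPM in DOCA, above the 3.31 to 5.41 CPM of controls, with a log2 fold change of 0.38 that did not pass (adjusted p = 0.242 in edgeR). SF3A1 had 11.3 and 14.2 CPM in DOCA and 7.92 to 13.2 CPM in controls, and overlapped them.

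SF3B3, the most highly expressed of the 8 SF3 genes, had 24.0 and 13.6 CPM in DOCA, against 21.7, 18.4, 16.3, 19.0 and 21.5 CPM in controls. Library 6 was above every control and library 7 below every control, and the log2 fold change was -0.04 (SE 0.23, adjusted p = 0.917 in edgeR). That order belonged to the TMM scale. In non-ribosomal CPM, counts scaled to the library total outside the scaffolds and the mitochondrial genome without TMM, SF3B3 had 137 and 123 in DOCA, within the 117 to 159 of controls.

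The 3 small subunits SF3B4, SF3B5 and SF3B6 had values at 0. SF3B6 had 0 CPM in both DOCA libraries, against 2.02, 2.06, 1.61, 1.12 and 1.71 CPM in controls, with an adjusted p of 0.000119 in edgeR. At the control level its coverage would have been 1.57 and 1.20 in libraries 6 and 7, just over the minimum of 1. SF3B4 had 1.28 and 0 CPM in DOCA, against 1.50 to 2.33 CPM in controls, and its coverage at the control level in library 7 would have been 2.65. SF3B5 had 0 and 0.134 CPM in DOCA, against 0.327 to 0.686 CPM in controls. Its coverage at the control level in library 6 would have been 5.71, yet its controls held no more than 21 to 45 counts. Neither SF3B4 nor SF3B5 passed the test (adjusted p = 0.345 and 0.187 in edgeR).

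**Figure D2:**
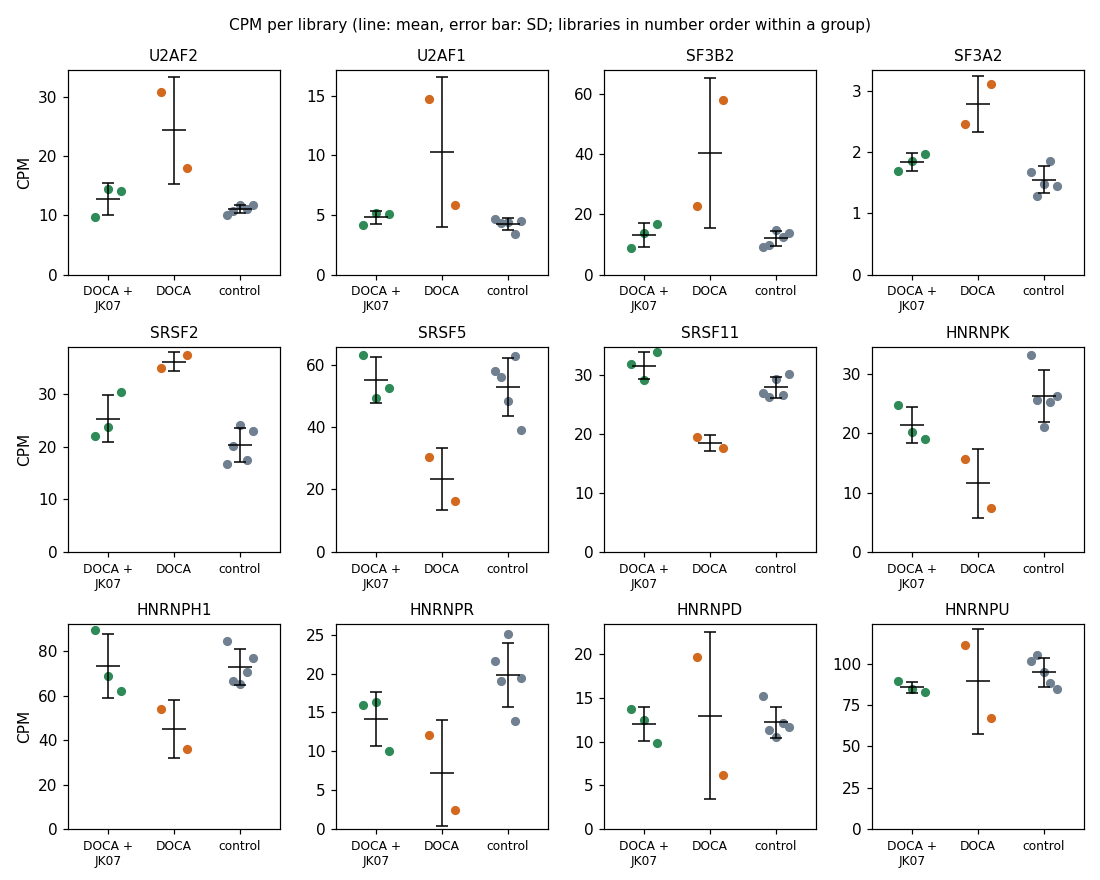
CPM of 12 of the splicing factor genes in each of the 10 libraries, with DOCA plus JK07, DOCA and control from left to right. Each point is a library, the short line is the group mean and the error bar the SD; in DOCA, U2AF2 at 30.8 and 18.0 CPM and SF3B2 at 22.8 and 58.0 CPM lie above all controls, and SRSF11 at 19.5 and 17.6 CPM lies below them.

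Of the 11 SR genes, 1 rose and 2 fell, about the share of all genes (5.73% higher, 19.7% lower), with a median log2 fold change of -0.21. SRSF2 (chromosome 12, 4800624 to 4801675) had 34.9 and 37.4 CPM in DOCA, against 16.7, 20.1, 24.2, 17.5 and 23.0 CPM in controls. Both DOCA libraries lay above every control, with a log2 fold change of 0.83 (SE 0.19, adjusted p = 0.0131 in edgeR). They were close to each other in CPM but apart in non-ribosomal CPM, with 198 and 339, against 121 to 174 in controls. Without library 7 the value was 0.78 (adjusted p = 0.0516 in edgeR), and in limma on log2(TPM + 1) it was 0.30 (adjusted p = 0.595). SRSF2 overlaps MFSD11 on the other strand, which averaged 2.90 CPM in DOCA and 4.10 CPM in controls, and the sources used here do not say whether counting used strand.

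SRSF5 (chromosome 7, 93393426 to 93403011), an SR protein of alternative exon choice, had 30.4 and 16.3 CPM in DOCA, against 58.0, 56.1, 48.2, 62.9 and 39.2 CPM in controls. Every DOCA value was below every control value. The log2 fold change was -1.18 (SE 0.29, adjusted p = 0.0163 in edgeR), and without library 7 it was -0.81 (adjusted p = 0.0755 in edgeR). It overlaps SLC10A1 on the other strand, which averaged 3.65 CPM in DOCA and 8.62 CPM in controls.

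SRSF11 (chromosome 6, 142621924 to 142642073), an SR-related protein with an arginine-serine domain, had 19.5 and 17.6 CPM in DOCA, against 27.0, 26.2, 29.3, 26.7 and 30.2 CPM in controls. The groups did not overlap. Its log2 fold change was -0.59 (SE 0.14, adjusted p = 0.0149 in edgeR), but it was -0.35 under upper quartile scaling (adjusted p = 0.107 in edgeR) and -0.53 without library 7 (adjusted p = 0.062 in edgeR). It was -0.57 on the total outside the scaffolds (adjusted p = 0.0604 in edgeR).

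SRSF1, the founding SR protein, had 36.3 and 21.3 CPM in DOCA, against 42.8, 48.1, 57.3, 48.7 and 36.0 CPM in controls, with a log2 fold change of -0.69 that missed the threshold (adjusted p = 0.0998 in edgeR). SRSF9 was above the controls in both DOCA libraries, with 8.91 and 6.66 CPM, against 4.20 to 6.10 CPM, and also missed it (0.55, adjusted p = 0.0888 in edgeR). SRSF4 and SRSF6 had log2 fold changes of 0.12 and 0.11. SRSF3, SRSF7, SRSF10 and SRSF12 had between -0.64 and -0.18, and in each of them library 6 exceeded library 7 at least 2.42-fold in CPM.

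Of the 14 hnRNP genes, 0 were called higher and 2 lower, no larger a share than over all genes (5.73 and 19.7%), with a median log2 fold change of -0.43, or -0.27 with the gene at 0 placed at the coverage minimum. HNRNPK (chromosome 10, 30975702 to 30987956), a protein of C-rich RNA, had 15.7 and 7.43 CPM in DOCA, against 33.2, 25.6, 21.1, 25.2 and 26.2 CPM in controls. Both DOCA libraries lay below every control. The log2 fold change was -1.18 (SE 0.30, adjusted p = 0.0207 in edgeR), and without library 7 it was -0.75 (adjusted p = 0.0769 in edgeR).

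HNRNPH2 (chromosome X, 83032621 to 83038361) had 0 CPM in both DOCA libraries, against 3.55, 2.66, 2.30, 1.48 and 2.50 CPM in controls, with an adjusted p of 5.69e-05 in edgeR. At the control level its coverage would have been 1.29 and 0.986 in libraries 6 and 7, about the minimum of the tables. A library at the control level could thus have listed it at 0, so these values do not show that it fell, though the test counts it among the 5 called lower. HNRNPH1 and HNRNPH2 encode near-identical proteins, and the sources used here do not say how reads shared by such copies were assigned.

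HNRNPH1 (chromosome 2, 78963309 to 78969949) had 54.1 and 35.8 CPM in DOCA, against 84.8, 66.6, 65.3, 70.7 and 76.9 CPM in controls. The groups did not overlap, yet the log2 fold change of -0.70 (SE 0.23) stayed just short of the threshold, with an adjusted p of 0.054 in edgeR. Scaled by the total outside the scaffolds, it passed with -0.73 (adjusted p = 0.0338 in edgeR). HNRNPH1 overlaps RUFY1 on the other strand, which averaged 6.58 CPM in DOCA and 7.11 CPM in controls. It also shares 593 bp with an unnamed gene on its own strand. That gene averaged 21.2 CPM in DOCA and 10.7 CPM in controls, with a log2 fold change of 0.98 (adjusted p = 0.0123 in edgeR). How reads in the shared stretch were assigned is not given. HNRNPR, an RNA-binding relative of SYNCRIP, had 12.1 and 2.44 CPM in DOCA, against 21.6, 19.0, 25.1, 13.9 and 19.5 CPM in controls. Its log2 fold change of -1.45 (SE 0.54, adjusted p = 0.0854 in edgeR) was lower in library 7 than in library 6, and on the total outside the scaffolds it passed with -1.64 (adjusted p = 0.027 in edgeR).

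The remaining hnRNP genes did not pass. HNRNPDL lay below all controls in both DOCA libraries, with a log2 fold change of -0.58. So did HNRNPUL1 in CPM, with -0.77, but in non-ribosomal CPM library 7, with 105.9, lay within the 83.5 to 135 of controls. HNRNPU had 112 and 67.1 CPM in DOCA, against 84.5 to 105 CPM in controls, and HNRNPD, a factor of AU-rich elements, had 19.7 and 6.19 CPM, against 10.6 to 15.2 CPM. In both genes library 6 was above the controls and library 7 below. In non-ribosomal CPM this held for HNRNPD, while HNRNPU in library 6, with 635, lay within the 624 to 739 of controls. HNRNPA1, HNRNPH3, HNRNPL, HNRNPLL, HNRNPM and HNRNPUL2 had log2 fold changes between -0.63 and 0.27.

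**Figure D3:**
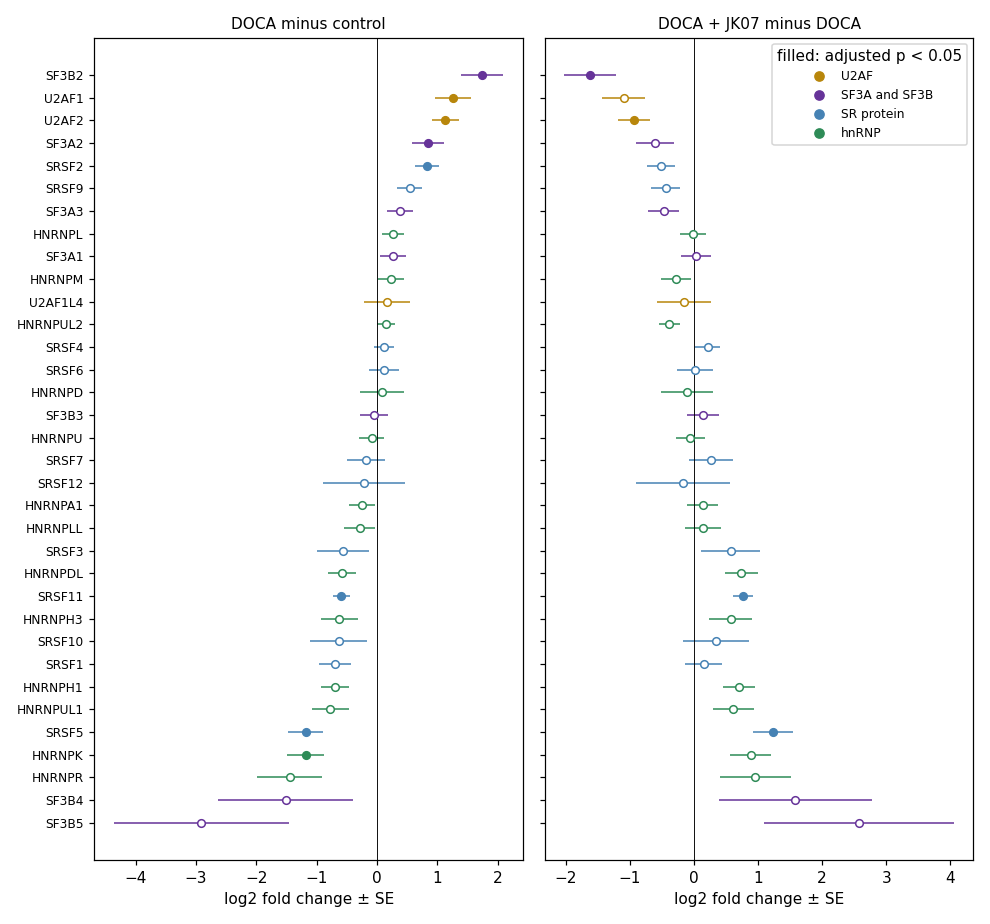
Log2 fold change in edgeR of the 34 genes above 0 in a DOCA library, for DOCA minus control on the left and DOCA plus JK07 minus DOCA on the right, with bars of 1 approximate SE; filled points passed an adjusted p of 0.05 and colours are classes. On the left 8 points are filled, from SRSF5 and HNRNPK at -1.18 to SF3B2 at 1.74; HNRNPH2 and SF3B6, at 0 in both DOCA libraries, are not drawn.

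How the pair of DOCA libraries differed in the family depended on the scale. In TMM-scaled CPM, 10 of the 32 genes above 0 in both, or 31.25%, were over 2-fold apart, against 30.4% of all genes tested that were above 0 in both. In non-ribosomal CPM it was 7 of the 32, against 41.1%. In TMM-scaled CPM, 25 of the 32 were higher in library 6, or 78.1%, against 52.0% of all such genes. The median log2 ratio of library 6 to library 7 was 0.75 for the 32 and 0.04 for all. HNRNPR and SRSF10 were 4.94-fold and 4.80-fold higher in library 6.

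In non-ribosomal CPM, 17 of the 32 were higher in library 6, or 53.1%, against 26.1% of all genes, with a median log2 ratio of 0.07 for the 32 and -0.63 for all. A change of scale moves the ratio of the 2 libraries alike in every gene, so the gap between the members and all genes is the same measurement on both scales. The 14 hnRNP genes summed to 402 and 251 CPM in libraries 6 and 7, against 385 to 458 CPM in controls. As a share of the counts outside the scaffolds they were 0.228 and 0.227%, against 0.263 to 0.333% in controls, so that both DOCA libraries lay below every control there. The 11 SR genes summed to 289 and 170 CPM, against 269 to 307 CPM in controls, and as a share to 0.164 and 0.154%, against 0.192 to 0.224%.

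Set against the range of the 5 controls in TMM-scaled CPM, 7 of the 36 genes were above it in both DOCA libraries, against 10.2% of all genes tested. Those were SF3A2, SF3A3, SF3B2, SRSF2, SRSF9, U2AF1 and U2AF2. Below it in both lay 11 genes, against 27.6% of all genes. In 5 genes, SF3B3, SRSF6, SRSF7, HNRNPD and HNRNPU, library 6 was above the range and library 7 below it, against 4.85% of all genes. U2AF1L4 alone had both libraries inside it, against 25.1% of all genes. In non-ribosomal CPM, 7 genes were above the controls in both DOCA libraries, with HNRNPL in place of SF3A3, and 14 were below, against 9.72 and 26.3% of all genes. There HNRNPD alone had library 6 above and library 7 below the controls, against 2.32% of all genes, and HNRNPUL2 the reverse, against 8.64%. SF3B3 and SRSF6 had both libraries inside the range, against 23.5% of all genes, while U2AF1L4, with 15.8 in library 7, was just over its highest control at 15.2.

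**Figure D4:**
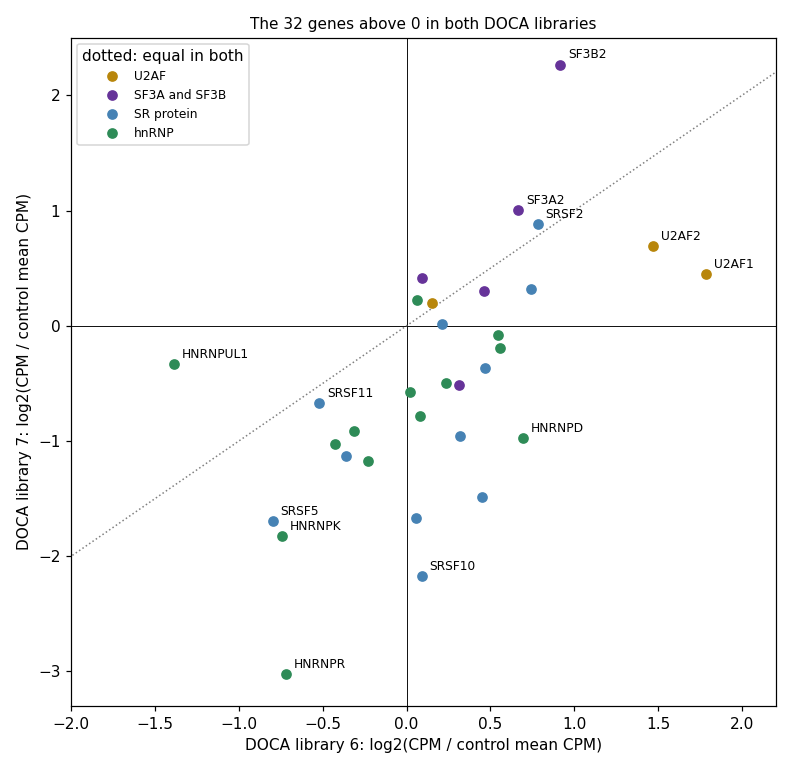
Log2 ratio of each DOCA library to the control mean in TMM-scaled CPM for the members above 0 in both, library 6 on one axis and library 7 on the other, coloured by class. Points off the diagonal differ between the 2 libraries: on this scale most lie toward library 6, with 25 of 32 higher there (17 of 32 in non-ribosomal CPM), and SF3B2 lies toward library 7.

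DOCA plus JK07 was compared with DOCA to ask what differs when the ERBB4 agonist is added. Of the 36 genes, 6 passed in edgeR, against 17% of all genes tested. SRSF5, SRSF11, HNRNPH2 and SF3B6 were higher, against 14.7% of all genes, and SF3B2 and U2AF2 were lower, against 2.25%. The median log2 fold change was 0.15 over the 36 genes and 0.55 over all genes. With genes at 0 in both DOCA libraries placed as before it was 0.08 and 0.00, the latter again set by the placing. Among genes above 0 in a DOCA library, a subset again chosen by the DOCA values, it was 0.14 over the members and 0.15 over all genes. For all 36 the median was -0.09 under upper quartile scaling and -0.19 without library 7, against 0.31 and 0.64 over all genes. This comparison shares its DOCA libraries with the previous one, so a mirrored sign between the 2 is built in. With quality weights, 0 of the 36 and 5 of all genes passed, while 12 of the 36 had an unadjusted p under 0.05 in edgeR, against 30.3% of all genes, and 15 passed in DESeq2, against 29.2% of all genes. All 3 libraries lay above both DOCA libraries in 9 of the 36, against 30.3% of all genes, and below both in 8, against 9.82%. Without library 6 the count was 14, without library 7 it was 7 and without library 8 it was 3, against 22.2, 24.0 and 13.4% of all genes. Upper quartile scaling gave 4 higher and 4 lower (2095 higher and 752 lower of all genes).

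U2AF2 had 9.67, 14.5 and 14.1 CPM with DOCA plus JK07, against 30.8 and 18.0 CPM in DOCA. All 3 libraries lay below both DOCA libraries, and the log2 fold change was -0.93 (SE 0.25, adjusted p = 0.0334 in edgeR), or -0.49 without library 6 (adjusted p = 0.2 in edgeR). U2AF1 had 4.19, 5.15 and 5.09 CPM, against 14.7 and 5.82 CPM in DOCA, and a log2 fold change of -1.09 that missed the threshold (SE 0.34, adjusted p = 0.0563 in edgeR), though on the total outside the scaffolds it passed (adjusted p = 0.0157 in edgeR).

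SF3B2 had 8.81, 14.0 and 16.8 CPM with DOCA plus JK07, against 22.8 and 58.0 CPM in DOCA. The groups did not overlap, and the log2 fold change was -1.61 (SE 0.41, adjusted p = 0.0238 in edgeR), or -0.78 without library 7 (adjusted p = 0.181 in edgeR). SF3B6 had 1.59, 1.30 and 0.767 CPM, against 0 CPM in both DOCA libraries (adjusted p = 0.000175 in edgeR). As given above, its coverage at the control level would have been just over the minimum in those 2 libraries. SF3B3 had 22.1, 17.9 and 22.4 CPM, against 24.0 and 13.6 CPM, with a log2 fold change of 0.14 (SE 0.25, adjusted p = 0.756 in edgeR).

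SRSF5 had 63.2, 49.2 and 52.6 CPM with DOCA plus JK07, against 30.4 and 16.3 CPM in DOCA, with a log2 fold change of 1.24 (SE 0.31, adjusted p = 0.0218 in edgeR). SRSF11 had 31.8, 29.2 and 33.8 CPM, against 19.5 and 17.6 CPM, with a log2 fold change of 0.77 (SE 0.15, adjusted p = 0.00658 in edgeR). In both SR genes all 3 libraries exceeded both DOCA libraries. SRSF5 missed the threshold without library 7 (0.86, adjusted p = 0.0794 in edgeR), both genes missed it when the fit held only these 2 groups, and SRSF11 missed it on the total outside the scaffolds (0.61, adjusted p = 0.0763 in edgeR). SRSF2 had 22.0, 23.7 and 30.4 CPM, against 34.9 and 37.4 CPM, and did not pass (-0.51, SE 0.22, adjusted p = 0.152 in edgeR).

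Among hnRNP genes, HNRNPH2 had 2.30, 1.69 and 1.62 CPM with DOCA plus JK07, against 0 CPM in both DOCA libraries (adjusted p = 7.93e-05 in edgeR). A DOCA library at the control level could have listed HNRNPH2 at 0, so this call does not show that it rose. HNRNPDL had 42.2, 36.1 and 31.0 CPM, against 26.3 and 17.3 CPM in DOCA, and HNRNPH1 had 89.5, 68.8 and 62.0 CPM, against 54.1 and 35.8 CPM. HNRNPK had 24.8, 20.3 and 19.1 CPM, against 15.7 and 7.43 CPM. These 3 genes did not overlap between the groups and missed the threshold, with log2 fold changes of 0.74, 0.71 and 0.89 and adjusted p-values of 0.0743, 0.0808 and 0.0909 in edgeR. HNRNPUL2 had 12.4, 12.2 and 11.5 CPM, against 14.8 and 16.6 CPM, and a log2 fold change of -0.38 (SE 0.16, adjusted p = 0.154 in edgeR).

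**Figure D5:**
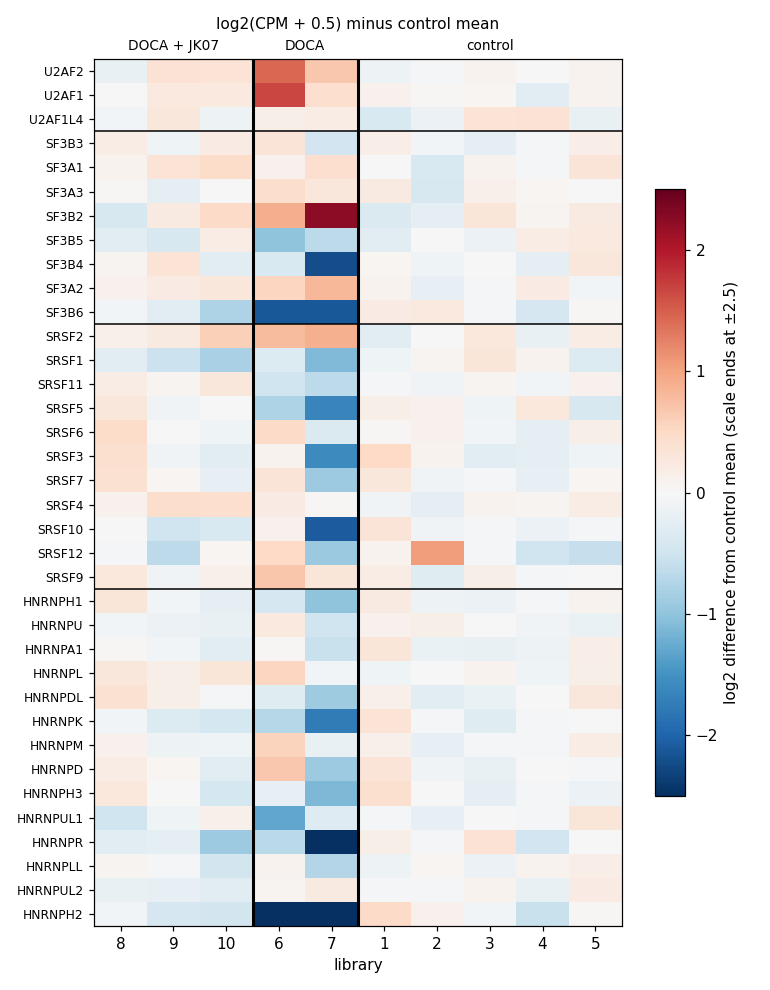
Log2 difference of each of the 36 genes from its control mean, on log2(CPM + 0.5), in each library, with DOCA plus JK07, DOCA and control from left to right and genes grouped by class. DOCA libraries 6 and 7 hold the strongest colours and differ from each other, as for SF3B2 at 22.8 and 58.0 CPM; the colour scale is capped, and the 3 libraries with DOCA plus JK07 are paler.

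DOCA plus JK07 against control gave 0 of the 36 genes past the threshold in edgeR, against 0% of all genes tested. At an unadjusted p under 0.05 there was 1 of the 36, SRSF1, against 4.65% of all genes, and DESeq2 and the quality-weighted fit also called 0 of the 36. The median log2 fold change was 0.01 over the 36 genes and -0.00 over all genes. Fold changes ran from -0.54 to 0.33. SRSF1, at the low end, had 38.5, 31.8 and 26.0 CPM with DOCA plus JK07, against 36.0 to 57.3 CPM in controls (-0.54, SE 0.23). SRSF4, at the high end, had 14.5, 18.3 and 18.0 CPM, against 11.2 to 15.3 CPM (0.33, SE 0.15).

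The leading gene of each class had log2 fold changes of 0.01 (SE 0.19) for HNRNPH1, 0.32 (SE 0.17) for SRSF2, 0.10 (SE 0.20) for SF3B3 and 0.20 (SE 0.20) for U2AF2. In TMM-scaled CPM, HNRNPL was the 1 gene of the 36 whose 3 libraries, with 38.0, 34.582 and 38.7 CPM, lay above all controls, the highest at 34.571 CPM, against 3.37% of all genes, and 0 of the 36 lay below all controls, against 2.45%. In non-ribosomal CPM, 0 lay above all controls, against 1.64% of all genes, and 3 lay below, against 5.90%. These were SRSF1, with 242, 211 and 172 against 266 to 411 in controls, HNRNPU, with 564, 564 and 551 against 624 to 739, and HNRNPUL2, with 78.3, 81.1 and 76.1 against 90.6 to 121. HNRNPL, with 229 to 257, overlapped the 206 to 255 of controls there. An adjusted p over the threshold does not show that these levels were alike.

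Class sums in CPM, with DOCA plus JK07 first, were 392 ± 41.3 against 411 ± 30.4 in controls for hnRNP genes and 286 ± 33.8 against 286 ± 14.5 for SR genes. They were 56.8 ± 5.71 against 52.2 ± 5.06 for SF3A and SF3B genes and 19.1 ± 3.39 against 16.9 ± 0.982 for U2AF genes (SD, n = 3 and n = 5). In all 4 classes these means differed by less than the SD between the DOCA plus JK07 libraries. As a share of the counts outside the scaffolds, hnRNP genes made up 0.255 ± 0.0196% with DOCA plus JK07 and 0.295 ± 0.0279% in controls, and SR genes 0.186 ± 0.0160% and 0.205 ± 0.0118% (SD, n = 3 and n = 5), differences larger than the SD between the DOCA plus JK07 libraries. On that scale the SF3 and U2AF classes still differed by less.

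Genes of the same machinery were counted alongside, to be read against the 5.73% of all genes called higher and 19.7% called lower in DOCA against control. Of 26 tested genes of small nuclear ribonucleoproteins, 1 was called higher and 4 lower in DOCA against control. The 4 called lower were all at 0 in both DOCA libraries. Their coverage at the control level was not worked out, so the calls do not show that they fell. The median log2 fold change was -0.64, or -0.38 with 6 genes at 0 in both DOCA libraries placed as for the members. SNRNP35, a protein of the minor spliceosome, LSM3, of the ring on U6 RNA, and SNRPG, of the Sm ring, were at 0 in both DOCA libraries and averaged 1.68, 1.57 and 1.36 CPM in controls. SNRNP70, the U1 protein, was the 1 gene that rose and is named after its values were seen. It had 209.8 and 67.1 CPM in DOCA, against 39.5 to 55.9 CPM in controls, with a log2 fold change of 1.62 (adjusted p = 0.0086 in edgeR).

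Of 27 pre-mRNA processing and catalytic spliceosome factors, 4 rose and 9 fell, with a median log2 fold change of -0.57. PRPF39, a U1-associated factor, had 2.56 and 2.54 CPM in DOCA, against 10.8 ± 0.396 CPM in controls (SD, n = 5), with a log2 fold change of -2.09 (SE 0.20, adjusted p = 7.18e-05 in edgeR). AQR, an RNA helicase of the spliceosome, fell by 1.82 on the log2 scale.

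Of 11 kinases and importers of SR proteins, 0 rose and 4 fell, with a median of -0.58. SRPK1, which phosphorylates arginine-serine domains, had 3.87 and 4.32 CPM in DOCA, against 8.62 ± 0.694 CPM in controls (SD, n = 5), with a log2 fold change of -1.08 (SE 0.16, adjusted p = 0.000931 in edgeR). TNPO1 and TNPO3, importins that carry hnRNP and SR proteins into the nucleus, fell by 1.09 and 0.99 on the log2 scale.

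Of 20 SR-related genes, 3 rose and 5 fell, with a median of -0.30, and SCAF11, BCLAF1 and TRA2A fell by 1.74, 1.46 and 1.23 on the log2 scale. Of 14 genes of the exon junction complex and nonsense-mediated decay, 1 rose and 3 fell, with a median of 0.06. UPF2 and UPF3B fell by 0.82 and 0.70 on the log2 scale. Of 36 other RNA-binding regulators of splicing, 2 rose and 11 fell, with a median of -0.26. PTBP3, counted among those that fell, was at 0 in both DOCA libraries and averaged 5.32 CPM in controls. Its coverage at the control level is not given here, so the call does not show that it fell. TIAL1 and FUBP1 fell by 2.39 and 1.20 on the log2 scale.

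In DOCA plus JK07 against DOCA, the numbers called higher and lower were 4 and 0 of the small ribonucleoprotein genes, 7 and 1 of the processing factors and 3 and 0 of the kinases and importers. They were 5 and 3 of the SR-related genes, 3 and 0 of the exon junction and decay genes and 6 and 0 of the other RNA-binding genes. Over all genes 14.7% were called higher and 2.25% lower. The 4 small ribonucleoprotein genes called higher were all at 0 in both DOCA libraries, as was PTBP3 among the other RNA-binding genes. These calls do not show that the genes rose. SRPK1 averaged 7.27 CPM with DOCA plus JK07, with a log2 fold change of 0.83 against DOCA (SE 0.17, adjusted p = 0.00742 in edgeR). In DOCA plus JK07 against control, 0 genes of these 6 lists passed in edgeR.

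The 36 genes are spread over 14 chromosomes, with 10 on chromosome 6 and 5 on chromosome 2. Only 3 pairs of neighbours lie within 1 Mb: HNRNPDL and HNRNPD at 34.6 kb, SRSF7 and HNRNPLL at 140 kb, and HNRNPR and SRSF10 at 488 kb. The genes are short, with a median span of 13.8 kb, and 27 of 36 span under 20 kb, against 54.3% of all genes tested. In genes of that length, 14.2% fell and 5.42% rose in DOCA against control, so the background for short genes was lower than the 19.7% over all lengths. Of the 36, 10 overlap another annotated gene, and in 6 of these it lies on the other strand. HNRNPA2B1, which the files do not name and the reference table of gene names does, was left outside the 36. It had 166 and 86.0 CPM in DOCA, against 162, 121, 116, 111 and 121 CPM in controls, with a log2 fold change of -0.00 (SE 0.27, adjusted p = 1 in edgeR).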

How the data were processed

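Nuclear RNA of sorted minipig cardiomyocytes was measured in 10 libraries of 3 groups. The build was Sscrofa11.1 and the tools were StringTie, SAMtools and edgeR, per the submitters' processing notes. Their versions, the aligner, the annotation release and the strand of counting are not given in the sources used here. Each library's table held coverage signal, FPKM and TPM per gene, made by the authors, per the file headers; FPKM entered no test. The authors also deposited whole-number estimated counts with no gene column. The 35670 lines of that table were matched to the sorted gene identifiers: 99.998% of values were then 0 in both tables or in neither, against 62.6% with a shift of 1 line. The counts were rounded before testing, which moved none.

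Counts were tested in edgeR 4.0.16 (R 4.3.3) by quasi-likelihood, with TMM, filterByExpr, group as the only term and all 10 libraries in 1 model. The biological coefficient of variation was 0.873 and the median prior degrees of freedom 2.03. P-values were adjusted by Benjamini-Hochberg over 17251 genes, separately for each comparison, at 0.05. SE was approximated from the log2 fold change and the F statistic. Library totals were 28.1 to 106 M counts. Outside the scaffolds and the mitochondrial genome the DOCA libraries were the smallest, with 6.87 and 3.30 M counts, and so have the larger counting error there. On simulated counts for DOCA against control with 16841 genes tested, 16 of 100 changes of 1 and 63 of 100 of 2 on the log2 scale were recovered, with 2 false calls. The simulation gave every library a common mean profile and the spread of the controls, with no coverage minimum. It therefore cannot tell how many false calls the real DOCA pair would bring.

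Alternatives were RLE and upper quartile scaling, no filter, DESeq2 1.42.0, limma 3.58.1 with quality weights or on log2(TPM + 1) and log2(TPM + 0.1), scaffolds and mitochondrial genome left out, thinning to equal depth, only the groups compared, and each library left out. Limma on rescaled TPM and scaling by the total outside the scaffolds and mitochondrial genome were chosen after seeing the data. The members and gene lists were chosen with earlier results of these data known, so no list was tested as a set. Full values went, in each comparison, to at most 12 members with the smallest adjusted p and to the member of each class with the highest mean TPM. Members at 0 in a whole group were named, and in each other list at most 3 genes with the smallest p; some of these are not reported here. Gene names came from the files.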

Additional observations from a re-analysis of the deposited data

Results flagged for a closer look

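Each of the 36 genes was checked in the 5 control libraries for a single library far from the others by Dixon's criterion, which chance meets in about 1 of 20 groups. It was met in 3 genes. SRSF10 had 36.3 CPM in control library 1, with the next value at 27.9 CPM. SRSF12, the SR gene with the largest spread, had 4.31 CPM in control library 2, with the next at 2.01 CPM. U2AF1 had 3.43 CPM in control library 4, below the next at 4.33 CPM, and its log2 fold change for DOCA against control is set against a mean that includes it. No cause was tested, and the 3 flags fell in 3 different libraries.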

How the results depend on the processing

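For DOCA against control, the count of members past the threshold was 0 with quality weights, 16 on log2(TPM + 1) and 18 on log2(TPM + 0.1). Over all genes tested, 161 passed with quality weights, 30.1% on log2(TPM + 1) and 34.2% on log2(TPM + 0.1). For DOCA plus JK07 against DOCA, members and all genes were 15 and 5045 in DESeq2, 0 and 5 with quality weights, 16 and 5626 on log2(TPM + 1), and 19 and 6084 on log2(TPM + 0.1), and members were 2 with only these groups fitted. For DOCA plus JK07 against control, DESeq2 called 115 genes and quality weights 8, with 0 members in either. Leaving out 1 library gave 8 to 18 members and 3307 to 5286 genes for DOCA against control, 3 to 14 members and 2277 to 4455 genes for DOCA plus JK07 against DOCA, and 0 members and 0 genes for DOCA plus JK07 against control.

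Among single genes, signs turned only in values that had not passed. SF3B3 in DOCA against control was 0.034 under RLE, 0.19 under upper quartile, 0.036 in DESeq2, 0.0018 without scaffolds and mitochondrial genome, 0.055 thinned and -0.51 to 0.31 with 1 library left out. In DOCA plus JK07 against DOCA it was -0.085 under upper quartile and -0.20 to 0.62 with 1 library left out, and against control -0.038 on the total outside the scaffolds. HNRNPH1 in DOCA plus JK07 against control was -0.020 under RLE, -0.020 in DESeq2, -0.079 on rescaled TPM, -0.14 on the total outside the scaffolds, -0.015 thinned and -0.16 to 0.12 with 1 library left out. In DOCA plus JK07 against DOCA, SRSF2 was 0.22 on log2(TPM + 1) and 0.22 on log2(TPM + 0.1), and HNRNPUL2 0.28 and 0.35. The cause was not tested.

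Upper quartile scaling put the median of all genes for DOCA against control at -0.39 instead of -0.63, and that of the members at 0.02 instead of -0.20. Without library 7 the members' median was 0.09. For DOCA plus JK07 against DOCA it was 0.15, and -0.09 and -0.19 under these settings. Genes of low coverage can be listed at 0 in a DOCA library, and the part of depth in this was not tested. No paired analysis was possible because the labels give each library its own number and the groups share none.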
